A study of Mus musculus with 27 samples.

Results

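The genes described are those of the mitochondrial ribosomal proteins, taken as the protein-coding genes whose mouse symbol starts with Mrpl or Mrps followed by a digit and that reached a CPM (a gene's reads relative to all counted reads of its library) of 1 in at least 3 libraries. They number 77 of the 38124 genes counted, and 36345 of those had a symbol. Of 81 matching symbols, the other 4 were processed pseudogenes. In 75 of the 77 genes 1 CPM was reached in all 27 libraries; Mrpl23 reached it in 19 and Mrpl53 in 3, just inside the limit, and no matching protein-coding gene fell outside it. By subunit, 50 genes encode proteins of the large and 26 of the small subunit, and Mrps36, named as a ribosomal protein, is now known as a component of the oxoglutarate dehydrogenase complex. Mrps18a and Mrps30, whose symbols say small subunit, are built into the large one.

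Messenger RNA was counted in macrophages that lavage had rinsed out of the airspaces of C57B/6 mice (8 to 14 weeks old) and that were sorted by surface markers, to compare cells of different origin through acute lung injury. Recruited cells, CD11c negative and CD11b positive, came from days 3, 6, 9 and 12 after lipopolysaccharide (LPS), a bacterial cell wall component that was instilled into the trachea (20 ng in 50 µL of saline, per the labels). Resident cells, CD11c positive and CD11b negative, came from the same days and, as day 0, from untreated mice; no recruited cells exist for day 0. All 9 groups had n = 3 libraries, the labels name no genetic change in any of them, and whether separate animals stand behind them is not stated. The p-values therefore measure the spread between these samples, which may be technical.

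Mitochondria make a few proteins themselves, all of them subunits of the respiratory chain and the ATP synthase, on ribosomes of their own. These ribosomes descend from bacterial ones, but many of their proteins have no bacterial counterpart, and all of the proteins are encoded in the nucleus, made in the cytosol and imported. Alveolar macrophages live on surfactant lipid and oxidise fatty acids in mitochondria, and resident ones renew themselves by division.

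The libraries held 11093216 to 18299674 counts (median 14859352), and the 77 genes took 0.128% to 0.215% of them. The 14 markers found of resident alveolar macrophages summed to 2550 to 11032 CPM in recruited libraries and 17146 to 35455 CPM in resident ones. The 14 markers of monocytes and their macrophages summed to 7277 to 29542 CPM in recruited libraries and 427 to 1608 CPM in resident ones. None of these 28 markers was at 0 in any group, so the labelled populations were both recognisable and not free of each other's markers. Reads outside genes were 26.5% in recruited day 6 library 2 against a median of 9.70%, and recruited day 12 library 1 had the lowest summed level of the 77 genes.

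To show what the start regions of these genes look like, RefSeq promoter windows (GRCm38.p6, 250 bases before to 50 after the start) were searched on both strands for the ETS-type motif CCGGAAG, the core bound by a family of factors that includes a known regulator of nuclear genes for mitochondrial proteins. Windows were found for 68 of the 77 genes. The motif stood in a window of 25 of these genes (36.8%), against 20.4% of 9894 tested genes with a window and 9.93% of all 27025 gene symbols. A gene with more than 1 window counted if any of them held the motif. A match is a description of letters and not evidence that a factor binds. The windows of 3 genes on which the results turn are printed 5′ to 3′ with matches in capitals. Mrps6 (chr16:92058086-92058385, plus strand), the gene that differed most between the populations, holds none. Mrpl17 (chr7:105811038-105811337, minus strand), the next among the genes lower in recruited cells, holds 1, and Mrpl52 (chr14:54426659-54426958, plus strand), which rose most in resident cells on day 3, holds 2 that read on the other strand.
Mrps6: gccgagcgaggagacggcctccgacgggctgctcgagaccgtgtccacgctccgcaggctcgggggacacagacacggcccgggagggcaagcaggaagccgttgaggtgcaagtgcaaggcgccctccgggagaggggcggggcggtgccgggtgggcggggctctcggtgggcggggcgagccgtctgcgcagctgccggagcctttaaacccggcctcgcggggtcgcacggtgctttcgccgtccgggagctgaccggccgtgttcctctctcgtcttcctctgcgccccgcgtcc
Mrpl17: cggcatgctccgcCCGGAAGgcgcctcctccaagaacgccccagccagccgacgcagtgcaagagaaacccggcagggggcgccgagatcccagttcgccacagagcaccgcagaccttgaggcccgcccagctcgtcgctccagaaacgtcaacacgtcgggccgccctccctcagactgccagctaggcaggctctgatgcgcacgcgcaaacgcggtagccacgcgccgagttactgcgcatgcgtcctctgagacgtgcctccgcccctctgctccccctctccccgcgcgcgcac
Mrpl52: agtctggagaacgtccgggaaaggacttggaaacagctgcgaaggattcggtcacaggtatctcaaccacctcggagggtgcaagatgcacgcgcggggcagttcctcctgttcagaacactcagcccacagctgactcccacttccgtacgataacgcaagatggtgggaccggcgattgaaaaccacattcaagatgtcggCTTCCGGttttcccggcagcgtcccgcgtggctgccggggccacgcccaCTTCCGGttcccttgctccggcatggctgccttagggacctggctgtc

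The group as a whole had one clear feature in time: its mean level was highest on day 3 in both populations. In recruited cells the summed level of the 77 genes was 1837 ± 189 CPM on day 3, 1553 ± 29.7 on day 6, 1611 ± 71.7 on day 9 and 1523 ± 83.5 on day 12 (SD, n = 3 each). In resident cells it was 1661 ± 104 CPM on day 0, 2003 ± 139 on day 3, 1655 ± 105 on day 6, 1698 ± 5.23 on day 9 and 1634 ± 18.5 on day 12 (SD, n = 3 each). The 3 resident day 3 libraries, at 2109, 1846 and 2055 CPM, lay above the 3 untreated ones, at 1780, 1595 and 1606 CPM. The recruited day 3 libraries did not form 1 level, since they held 1953, 1618 and 1939 CPM and the second of them lay within the range of later days.

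**Figure D1:**
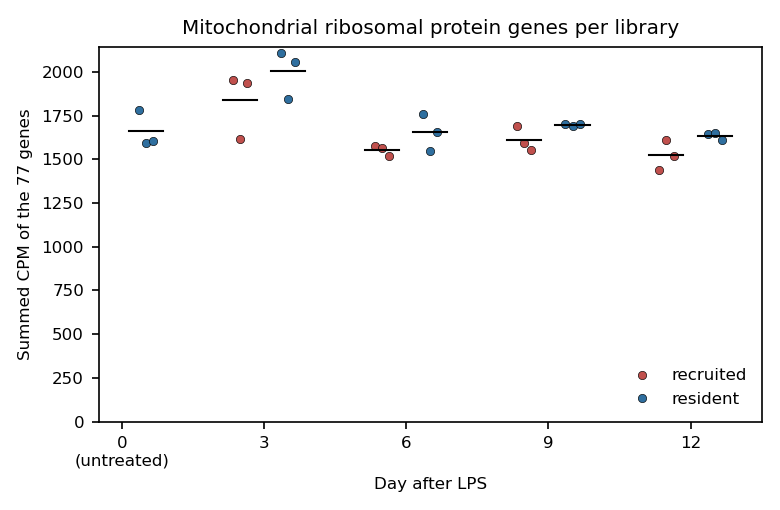
Summed CPM of the 77 genes (y axis, from 0) in each of the 27 libraries by day after LPS (x axis), with recruited cells to the left of resident cells on each day and a bar at each group mean. The resident day 3 libraries, from 1846 to 2109 CPM, are above every other resident library, and 1 recruited day 3 library, at 1618 CPM, lies well below the other two.

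Between genes, levels were compared per length, as CPM divided by the length of the annotated principal transcript in kilobases (RPKM). Over all 27 libraries the highest mean levels were those of Mrpl52 (76.1 RPKM), Mrps21 (63.8), Mrps15 (43.4), Mrpl4 (42.8) and Mrpl20 (39.4). The lowest were those of Mrpl53 (0.934 RPKM), Mrpl23 (2.04), Mrpl47 (2.58), Mrps35 (3.46) and Mrps25 (3.49). Mrpl23 and Mrpl47 are proteins of the rim of the exit tunnel, through which the new chain leaves the ribosome. Across the genes compared, mRNA levels per length spanned a wide range here. A long annotated transcript lowers the value, as for Mrpl47 with 3364 bases and Mrps25 with 6073. The order at the top also depends on the length used. All annotated exons together cover 1109 bases in Mrpl52 and 739 in Mrps21. Most genes moved little between libraries, with a median fold of 1.95 between the highest and the lowest library. The largest such folds were those of Mrpl53 (11.8), Mrps6 (5.82), Mrpl52 (4.67), Mrpl23 (4.47) and Mrpl54 (3.97), and Mrpl53 and Mrpl23 are the 2 least abundant genes.

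**Figure D2:**
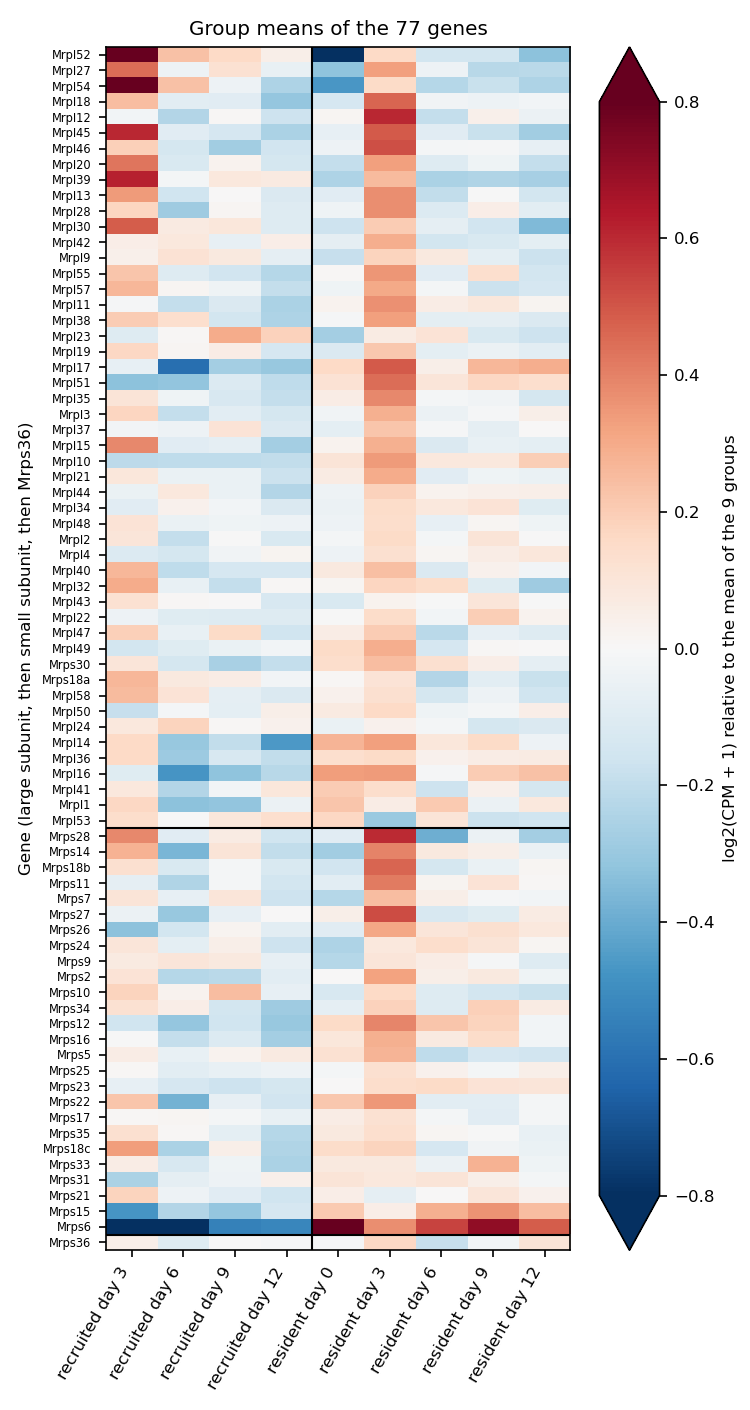
Group means of each of the 77 genes (rows, the large subunit above the small, each sorted by the resident change to day 3) in the 4 recruited and 5 resident groups (columns), as log2(CPM + 1) relative to the gene's mean over the 9 groups. The resident day 3 column is red for most rows, and Mrps6, near the bottom, is blue in all recruited and red in all resident columns.

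Resident cells on day 3 were set against untreated resident cells to ask what the injury did to the cells already present. Of the 77 genes, 23 rose and none fell, 29.9% against a background of 13.3% of all 13599 tested genes that rose and 10.5% that fell (edgeR quasi-likelihood F test, Benjamini-Hochberg adjusted p under 0.05). The median log2 change of the 77 genes was 0.25, against 0.00 for all tested genes, and 70 of the 77 changes were positive. Both subunits took part, with 15 of 50 large-subunit and 8 of 26 small-subunit genes called, as did proteins with a bacterial homologue (13 of 45) and those without (10 of 31).

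The largest rise was that of Mrpl52, a large-subunit protein with no bacterial homologue. It had 40.7, 27.3 and 34.7 CPM in resident day 3 libraries, against 22.3, 14.2 and 15.2 CPM in untreated ones. The groups did not overlap, and the log2 change was 0.99 ± 0.20 (SE; edgeR adjusted p = 0.000854). Next came Mrps28 (log2 change 0.74), Mrps14 (0.70), Mrpl27 (0.68) and Mrps18b (0.66), all with no overlap between the groups. Of these, Mrps28 and Mrps14 are small-subunit proteins with a bacterial homologue.

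Mrpl12, a protein of the stalk that brings translation factors to the ribosome, had 64.0, 48.9 and 65.4 CPM on day 3, against 48.6, 33.3 and 36.4 CPM in untreated resident cells. Its lowest day 3 library was barely above the highest untreated one, and the log2 change was 0.59 ± 0.14 (edgeR adjusted p = 0.00476). The other stalk proteins differed: Mrpl11 rose by 0.35 on the log2 scale and Mrpl10 did not pass the test. Mrpl45, which ties the ribosome to the inner membrane where its products are inserted, rose by 0.58, and Mrps7 and Mrps2 of the small subunit rose by 0.49 and 0.32. Among the 3 paralogs of the S18 family Mrps18b alone was called.

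Mrps11 and Mrpl46 are a head-to-head pair whose RefSeq starts lie on opposite strands of chromosome 7 (plus strand from 78783131, minus strand from 78783089, GRCm38), 42 bases apart. In the GENCODE annotation exons of the pair overlap on opposite strands. The strand option of the counting is not given, so whether their counts are fully separate is not known. Mrps11 had 16.5, 14.4 and 14.5 CPM on day 3, against 11.1, 11.3 and 8.93 CPM in untreated cells, and its log2 change was 0.54 ± 0.16 (edgeR adjusted p = 0.0158). Mrpl46 had 15.7, 14.8 and 16.2 CPM, against 10.6, 11.8 and 8.61 CPM, and its log2 change was 0.59 ± 0.16 (edgeR adjusted p = 0.00802). Both were higher in every day 3 library than in any untreated one; the pair is shown for its neighbouring starts and was chosen after its values were seen.

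The count of 23 rests on few libraries. It was 15 without untreated library 2, 14 without untreated library 3 and 14 without day 3 library 3, and 12 when libraries were scaled by their totals alone. The median change was 0.25, 0.18 and 0.27 when day 3 and day 0 were compared within each of the 3 runs of numbers in the column headers, whose meaning is not given. Other lists also moved: 7 of 23 cell cycle genes rose (median log2 change 0.88), and 12 neutrophil markers summed to 231 to 274 CPM in resident day 3 libraries, against 117 to 140 CPM in untreated ones, with Elane at 0 on day 3 and Ly6g, Camp and Elane at 0 in untreated cells. The 14 markers of monocytes and their macrophages summed to 1337 to 1608 CPM in resident day 3 libraries, against 427 to 494 CPM in untreated ones. Those of resident alveolar macrophages summed to 27978 to 35084 CPM on day 3, against 17146 to 21154 CPM in untreated cells, and 13 T and NK cell markers to 3.49 to 8.00 CPM, against 0.440 to 0.578 CPM with 6 of them at 0. Epithelial markers went the other way: 11 of them summed to 86.9 to 114 CPM on day 3, against 120 to 207 CPM in untreated cells, with Krt8 at 0 in both. The part of these lists in the result was not tested. In bulk RNA, a change in the mix of cells and a change of RNA per cell cannot be told apart.

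Other mitochondrial gene lists were read beside the 77 genes and against the background of 13.3% higher and 10.5% lower. Of 22 genes for protein import and chaperones 8 rose (36.4%) and none fell (median log2 change 0.27), led by Timm23 (0.76) and Timm17a (0.69), parts of the inner membrane import channel, and Grpel1 (0.57), a cofactor of the import motor. Among 5 other ribosome-associated proteins Dap3, a small-subunit protein that binds GTP, rose by 0.39. Of 13 translation factors 3 rose: Mtfmt (0.46), which formylates the initiator tRNA, Tufm (0.38), the elongation factor that delivers tRNA, and Guf1 (0.35). Of 17 aminoacyl-tRNA synthetases, Sars2 (0.51) and Tars2 (0.34) rose, 11.8% and so near the background. Of 23 assembly factors Mrm3 (0.70) and Mtg1 (0.59) rose and Mterf3 fell by 0.40. Of 81 cytosolic ribosomal protein genes 9 rose, also near it at 11.1%. Their median log2 change of 0.33 was above that of the 77 genes, so an upward median was not particular to the mitochondrial ones. The mRNAs that mitochondria encode were not called: 7 of 13 were tested, all with a negative log2 change (median -0.47), and the other 6 had at most 43 counts in all libraries together.

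Later days gave few calls in resident cells. Against untreated cells, 1 of the 77 genes was called on day 6 (Mrpl52, log2 change 0.66 ± 0.20, edgeR adjusted p = 0.0468), against a background of 3.77% higher and 2.65% lower. On day 9 none was called against a background of 1.61% higher and 1.88% lower, with 2 at an unadjusted p under 0.05 and 1 called by DESeq2. On day 12 none was called against 1.1% higher and 0.206% lower, with 3 at an unadjusted p under 0.05 and 0 called by DESeq2. The Mrpl52 call on day 6 was lost without untreated library 2 or 3 or any 1 of the day 6 libraries (adjusted p from 0.0541 to 0.228).

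Between day 6 and day 3, 25 of the 77 genes fell in resident cells and none rose (32.5% against a background of 13.3% lower and 11.2% higher; median log2 change -0.31). Mrps28 had 7.02, 6.12 and 6.57 CPM on day 6, against 14.9, 11.4 and 16.2 CPM on day 3, which left a wide gap between the groups (log2 change -1.11 ± 0.19, edgeR adjusted p = 0.000182). Mrpl12 had 37.6, 30.1 and 33.6 CPM on day 6, against 64.0, 48.9 and 65.4 CPM on day 3 (log2 change -0.82 ± 0.15, edgeR adjusted p = 0.000323). Mrps27, a mitochondria-specific small-subunit protein, fell by 0.69, Mrps18b by 0.65 and Mrpl45 by 0.61. By subunit, 21 of 50 large-subunit and 4 of 26 small-subunit genes fell; a difference between the subunits was not tested. The comparison shares the day 3 libraries with the one against untreated cells, so the return adds no separate evidence for the rise. The count was 12 without day 3 library 1, 11 without day 3 library 3 and 10 without day 6 library 2. All 23 cell cycle genes and 11 of 22 import genes fell in the same comparison, among them Timm23 (-0.81), Grpel1 (-0.75) and Timm17a (-0.69). Markers of monocytes and their macrophages summed to 1090 to 1269 CPM on day 6, against 1337 to 1608 CPM on day 3, and neutrophil markers to 130 to 141 CPM, with Ly6g, Retnlg and Elane at 0, against 231 to 274 CPM; their part was not tested.

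In recruited cells the same step was seen from day 3 to day 6. Of the 77 genes, 23 fell and none rose (29.9% against a background of 16.8% lower and 15.1% higher; median log2 change -0.20). Mrpl54, a large-subunit protein without a bacterial homologue, had 25.6, 27.6 and 23.7 CPM on day 6, against 46.0, 38.9 and 49.6 CPM on day 3, and its log2 change was -0.81 ± 0.16 (edgeR adjusted p = 0.000543). Mrpl45 had 23.9, 23.3 and 22.1 CPM on day 6, against 34.9, 32.7 and 48.3 CPM on day 3, and its log2 change was -0.74 ± 0.15 (edgeR adjusted p = 0.000641). Both genes lay lower in every day 6 library. Mrpl39, a large-subunit protein without a bacterial homologue, fell by 0.66, Mrps18c by 0.63 and Mrps22 by 0.62.

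The fall was not even over the libraries. Within the run of header numbers 19 to 28, which holds recruited day 3 library 2, the median log2 difference of day 6 minus day 3 was 0.03, while in the 2 other runs it was -0.28 and -0.35. The count was 14 without recruited day 3 library 1, 13 without its library 3, 12 without recruited day 6 library 1 and 12 without its library 2, the library with the high share of reads outside genes. It was 13 with scaling by library totals, under which the median of all genes was 0.10. Neutrophil markers summed to 366 to 446 CPM on day 6, with Ly6g at 0, against 527 to 1091 CPM on day 3, with Elane at 0. The 14 markers of monocytes and their macrophages summed to 17334 to 23612 CPM on day 6, against 9119 to 12834 CPM on day 3, and those of resident alveolar macrophages to 2550 to 4414 CPM, against 2574 to 3754 CPM. The part of these lists in the result was not tested. The calls on Mrps18c and Mrps22 were lost without some single libraries (adjusted p 0.0522 to 0.0922).

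In 11 of the 77 genes the fall to day 6 was called in both populations, which share no library here: Mrpl3, Mrpl13, Mrpl15, Mrpl17, Mrpl18, Mrpl20, Mrpl28, Mrpl39, Mrpl40, Mrpl45 and Mrps28. They are 44% of the 25 resident and 47.8% of the 23 recruited calls. Over all genes, 891 were called lower in both, 49.2% of 1810 resident and 39.1% of 2281 recruited calls. The shared portion in the 77 genes is thus of the size seen over all genes.

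**Figure D3:**
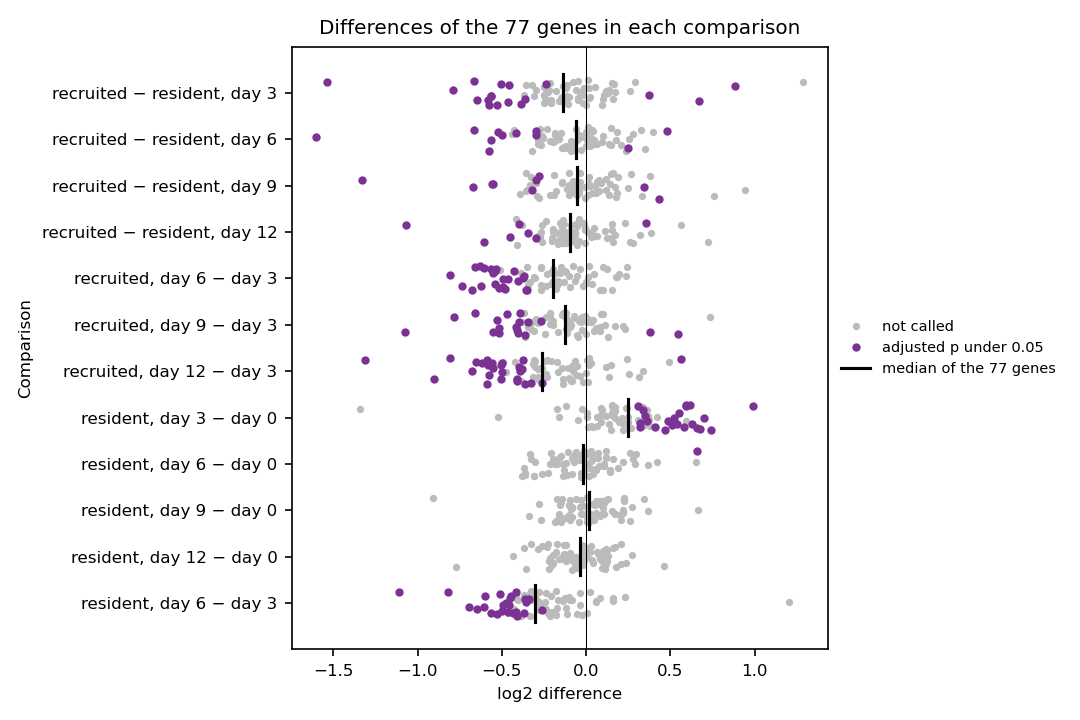
Log2 differences (x axis) of the 77 genes, 1 point each, in 12 comparisons (rows, tested group first), with calls at adjusted p under 0.05 in purple and the median of the 77 genes as a black bar. The bar is at 0.25 for resident day 3 against untreated cells and at -0.31 for resident day 6 against day 3, and it is near 0 for resident days 6 to 12 against untreated cells.

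In recruited cells the mean summed level of the 77 genes stayed below that of day 3, though the share called lower on day 9 was near the background. On day 9, 2 of the 77 genes were higher and 16 lower than on day 3 (2.6% and 20.8%, against backgrounds of 18.2% and 18%; median log2 change -0.12), and with scaling by library totals 3 were higher and 7 lower, the median of all genes then being 0.15 instead of 0.03. On day 12, 1 was higher and 25 lower (1.3% and 32.5%, against 19.8% and 19.5%; median -0.26). The 3 comparisons share the day 3 libraries. Without recruited day 3 library 1 or 3 the day 9 count of 18 was 11 or 9, and the day 12 count of 26 was 14 in either case and also without recruited day 12 library 1. Within the run that holds recruited day 3 library 2 the median difference was 0.00 on day 9 and 0.02 on day 12.

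Mrpl54 moved most. Its level was 46.0, 38.9 and 49.6 CPM in recruited day 3 libraries, 25.6, 27.6 and 23.7 on day 6, 19.7, 26.2 and 17.96 on day 9, and 20.4, 17.4 and 16.5 on day 12. Every later library lay below every day 3 library, the second one included, and the log2 change was -1.08 ± 0.16 on day 9 (edgeR adjusted p = 1.8e-05) and -1.31 ± 0.16 on day 12 (1.25e-06). Mrpl45 fell by 0.78 on day 9 and by 0.90 on day 12, Mrpl52 by 0.66 and 0.81, and Mrpl39 by 0.55 and 0.56. Mrpl15, a large-subunit protein with a bacterial homologue, and Mrps18c fell by 0.68 and 0.62 on day 12, and Mrpl32 fell by 0.52 on day 9. The Mrpl52 call on day 9 was lost without recruited day 3 library 1 or recruited day 9 library 3.

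Genes that rose in recruited cells were few: Mrps6 on day 9 (log2 change 0.55, edgeR adjusted p = 0.0498) and day 12 (0.56, 0.0429), and Mrps26 on day 9 (0.38, 0.0429). These calls were lost without many single libraries, for Mrps6 without any of the 3 day 3 libraries, day 9 library 1 or day 12 library 2 or 3, and for Mrps26 without day 3 library 2 or 3 or day 9 library 1. In the same cells some mRNAs encoded by mitochondria went the other way from the 77 genes on 2 of the 3 days. On day 6, 3 of 7 were higher than on day 3 and none lower (median log2 change 0.87), against a background of 15.1% higher. On day 12, 4 of 7 were higher (0.97), against a background of 19.8% higher. On day 9 none of the 7 was called (log2 changes -0.06 to 0.44, median 0.29; 0 at an unadjusted p under 0.05). The called ones included mt-Nd4, a complex I subunit (0.97 on days 6 and 12), and mt-Cytb, the complex III cytochrome (0.87 and 0.91). Recruited day 12 library 1 held the highest day 12 level of each of the 4 genes called. The groups overlapped for mt-Nd5, with 2602, 1062 and 715 CPM on day 12, against 716, 748 and 585 CPM on day 3. They also overlapped for mt-Nd2, with 1288, 468 and 280 CPM against 302, 267 and 223 CPM. Those of mt-Nd4 and mt-Cytb did not overlap. Whether the difference in sign from the 77 genes holds beyond these samples was not tested.

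Recruited cells were then set against resident cells, to ask how cells of different origin differ. In the mean over days 3 to 12, 7 of the 77 genes were higher and 24 lower in recruited cells (9.09% and 31.2%, against backgrounds of 30.3% and 30% of all 13599 tested genes). The share that was lower was thus near the background, and the share that was higher was below it. The median log2 difference was -0.10, against 0.02 for all tested genes. Of the large-subunit genes 6 of 50 were higher and 15 lower, and of the small-subunit genes 1 of 26 and 9. Among proteins with a bacterial homologue 2 of 45 were higher and 18 lower, and among those without 5 of 31 and 6; these splits were not tested against each other.

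**Figure D4:**
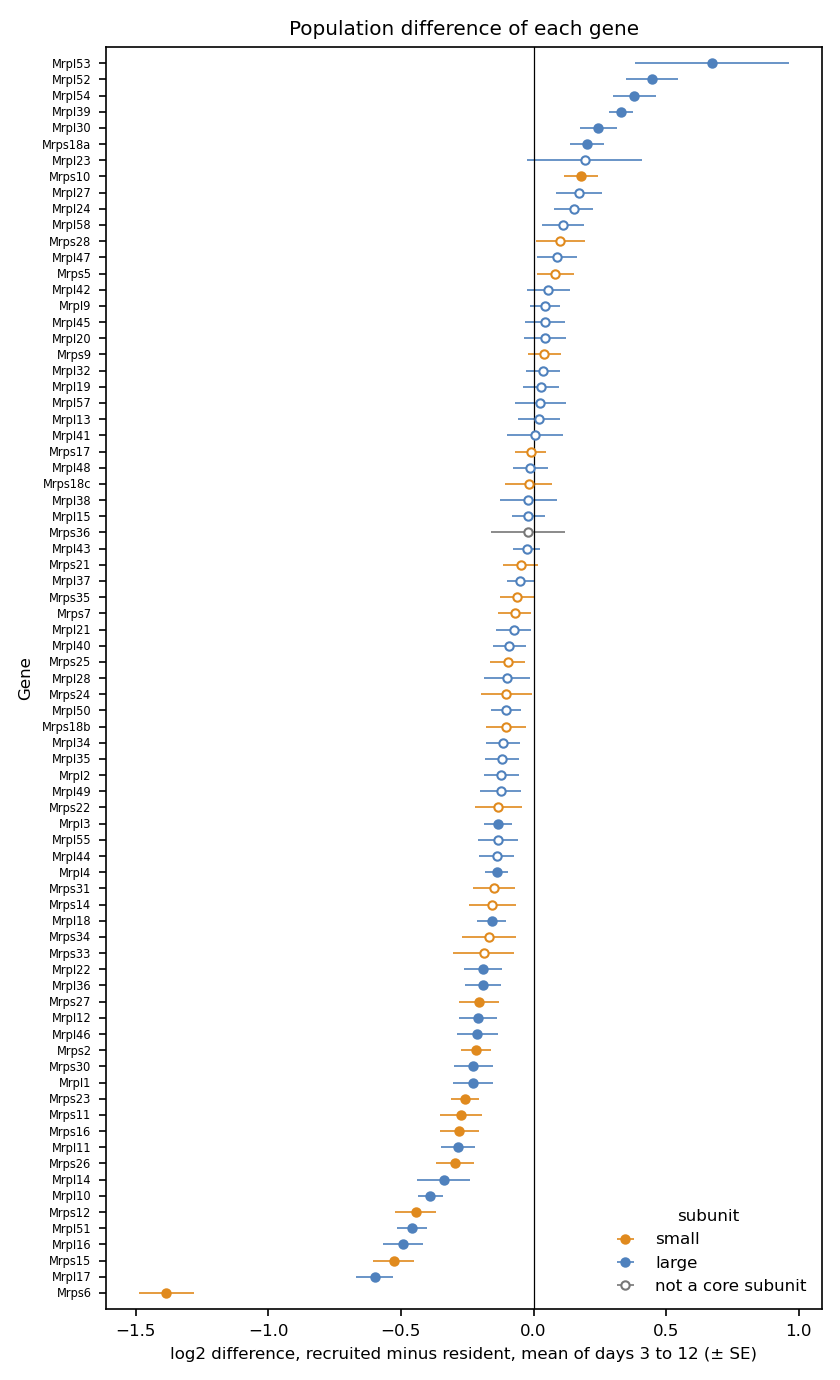
Log2 difference, recruited minus resident, in the mean of days 3 to 12, for each of the 77 genes (rows), with standard errors as bars, filled points for adjusted p under 0.05 and colours for the subunit. Mrps6 stands apart at -1.39, and the other genes lie between -0.60 and 0.67.

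Mrps6, the mitochondrial homologue of bacterial small-subunit protein S6, differed most. Its mean level was 7.48 CPM in recruited cells and 19.4 CPM in resident cells of the same days, a log2 difference of -1.39 ± 0.10 (SE; edgeR adjusted p = 7.24e-11). On day 3 it had 6.21, 5.42 and 6.33 CPM in recruited libraries, against 22.2, 13.5 and 16.6 CPM in resident ones. On day 12 it had 7.36, 10.7 and 8.36 CPM in recruited libraries, against 17.4, 20.1 and 18.1 CPM in resident ones. The populations did not overlap on any of the 4 days, and the log2 difference was -1.54 on day 3, -1.60 on day 6, -1.33 on day 9 and -1.07 on day 12. Untreated resident cells had the highest level, with 26.97, 24.2 and 24.04 CPM.

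The exons of Mrps6 on chromosome 16 (92058270 to 92112227, plus strand, GRCm38) are shared on the same strand with Slc5a3, the gene of a myo-inositol transporter that lies within the Mrps6 locus. Slc5a3 itself was lower in recruited cells, by a log2 difference of -1.02 ± 0.19 in the mean over days (edgeR adjusted p = 7e-05), and it was higher on day 6 and day 12 than on day 3 in recruited cells (1.32 and 1.29). In resident cells Slc5a3 was lower on day 3 than in untreated cells (-1.22, edgeR adjusted p = 0.0192), where Mrps6 was not called (-0.52). The deposited counts of unassigned reads include an ambiguous class. No source used here says whether reads of the shared exons went there or to a gene, so the Mrps6 values are uncertain to that extent. Over the 77 genes, 7 share exons with another gene on the same strand and 28 on the opposite one, and 45 share none; the strand option of the counting is not given either.

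Mrpl17, a protein of the exit tunnel rim, came next among the genes that were lower. It had 40.7, 32.2 and 39.9 CPM in recruited cells, against 55.6, 50.4 and 61.0 CPM in resident cells on day 3. On day 6 it had 23.9, 23.4 and 29.5 CPM in recruited cells, against 43.0, 37.2 and 41.9 CPM in resident cells. The groups were apart on all 4 days, and the log2 difference in the mean was -0.60 ± 0.07 (edgeR adjusted p = 1.13e-07).

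The next in size were Mrps15 (log2 difference -0.53), Mrpl16 (-0.49), Mrpl51 (-0.46), Mrps12 (-0.44), Mrpl10 (-0.39), Mrpl14 (-0.34), Mrps26 (-0.30) and Mrpl11 (-0.28). Mrps15 and Mrpl16 have bacterial counterparts of the same number, Mrpl51 has none, Mrps12 lies at the decoding centre, where codon and tRNA are matched, and Mrpl10 and Mrpl11 belong to the stalk. The third stalk protein, Mrpl12, was lower by less (-0.21), as was Mrps2 (-0.22). Mrpl58, which frees stalled chains from the ribosome, the exit tunnel proteins Mrpl23 and Mrpl24, the membrane anchor Mrpl45, and Mrps5 and Mrps7 did not pass the test. Of the S18 paralogs, Mrps18a in the large subunit was higher (0.20), and Mrps18b and Mrps18c did not pass. Mrps30, built into the large subunit, was lower (-0.23), and Mrps36, no ribosomal protein, did not pass.

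Mrpl39 was higher in recruited cells on every day with no overlap of the libraries. It had 31.7, 31.9 and 33.2 CPM in recruited cells, against 24.0, 24.3 and 26.2 CPM in resident cells on day 3, and 24.2, 20.9 and 20.6 CPM, against 16.9, 17.8 and 16.6 CPM on day 12. Its log2 difference in the mean was 0.33 ± 0.04 (edgeR adjusted p = 8.4e-07). It is a large-subunit protein without a bacterial homologue. Mrpl52 (0.45), Mrpl54 (0.38), Mrpl30 (0.24), Mrps18a (0.20) and Mrps10 (0.18) were also higher. Mrpl53 was higher at 0.67 ± 0.29 (adjusted p = 0.0497), from a mean of 0.757 CPM in recruited cells and 0.497 CPM in resident cells, and this call was lost under many alternatives. The call on Mrps10 was lost without recruited day 9 library 1, and those on Mrps10 and Mrps18a with scaling by library totals.

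Apart on each of the 4 days were 7 genes that were lower (Mrps6, Mrpl17, Mrps15, Mrpl16, Mrpl51, Mrpl10 and Mrpl11) and 1 that was higher (Mrpl39). Over all tested genes, 10.7% were lower and 8.82% higher in this sense, so 7 of 77 is near the background. A negative log2 difference on all 4 days was seen in 29 of the 77 genes, and a positive one in 6. No share over all tested genes is given beside these counts, so they are not read as a result about the 77 genes.

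**Figure D5:**
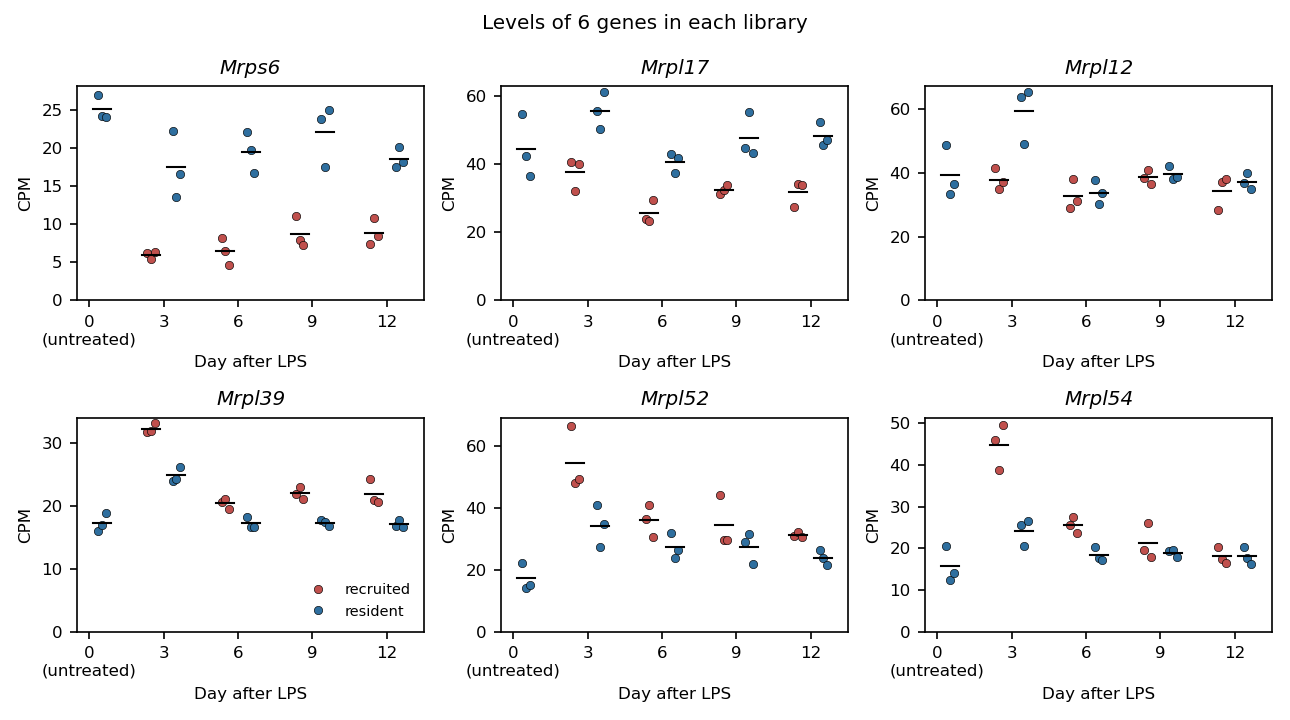
CPM (y axes, from 0) of 6 genes in each of the 27 libraries by day after LPS (x axes), with recruited cells to the left of resident cells and a bar at each group mean. Mrps6 and Mrpl17 are lower and Mrpl39 higher in recruited cells on every day, Mrpl12 is highest in resident cells on day 3, and Mrpl54 is high in recruited cells on day 3 and at the resident level by day 12.

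Day by day, 3 of the 77 genes were higher and 15 lower on day 3 (background 23.2% and 23.5%), 2 and 9 on day 6 (16.2% and 18.8%), 2 and 7 on day 9 (15.6% and 16.4%), and 1 and 6 on day 12 (12.6% and 14.7%). On day 3 the lower genes were led, after Mrps6, by Mrpl51 (log2 difference -0.79), Mrps26 (-0.66), Mrpl12 (-0.65) and Mrps27 (-0.58). Mrpl12 had 41.4, 35.0 and 37.3 CPM in recruited cells, against 64.0, 48.9 and 65.4 CPM in resident cells. The higher ones were Mrpl54 (0.88), Mrpl52 (0.67) and Mrpl39 (0.38). Several of these are genes that rose in resident cells on day 3, and the 2 comparisons use the same resident libraries.

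On day 6, Mrpl1 (-0.58), Mrps12 (-0.56) and Mrps15 (-0.52) followed Mrps6 and Mrpl17, and Mrpl54 (0.48) and Mrpl39 (0.25) were higher. On day 9, Mrps15 (-0.67), Mrpl17 (-0.56), Mrpl16 (-0.55) and Mrps2 (-0.32) followed, and Mrps10 (0.43) and Mrpl39 (0.34) were higher. On day 12, Mrpl17 (-0.61), Mrpl16 (-0.45), Mrpl10 (-0.40) and Mrpl51 (-0.34) followed, and Mrpl39 (0.36) was higher. With 1 block per day and library number, day 12 had 11 calls, 3 higher and 8 lower. On day 9, 2 were higher and 4 lower with scaling by library totals.

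Some of these calls rest on 1 library or setting. On day 6, 7 genes were called without recruited day 6 library 1, and neither Mrpl54 nor Mrpl39 was called without recruited day 6 library 1 or 2 or resident day 6 library 2 or 3 (adjusted p 0.0528 to 0.113); Mrpl39 also missed the threshold with the block (0.0503), and Mrps15 without recruited day 6 library 3. On day 12, 4 genes were called without resident day 12 library 1, and Mrpl16 and Mrpl51 were each lost without several single libraries. On day 9, Mrps2 missed it with the block (0.0507) and Mrps10 without recruited day 9 library 1. On day 3, Mrpl52 missed it without recruited day 3 library 1 (0.0525). Scaling by library totals gave 28 calls on day 3.

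The change of the population difference between day 12 and day 3 was tested directly. It was called in 1 of the 77 genes, against a background of 7.38% higher and 6.24% lower. The gene was Mrpl54, whose recruited minus resident difference was smaller on day 12 than on day 3 by 0.89 ± 0.23 on the log2 scale (edgeR adjusted p = 0.0125). On day 3 it had 46.0, 38.9 and 49.6 CPM in recruited cells, against 25.7, 20.5 and 26.6 CPM in resident cells. On day 12 it had 20.4, 17.4 and 16.5 CPM in recruited cells, against 20.4, 17.8 and 16.3 CPM in resident cells, at nearly the same level. The call was lost without resident day 12 library 1 (adjusted p = 0.0533), and the count was 3 with the block, 2 of them lower. Scaling by library totals gave 1 higher and 1 lower.

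Recruited cells of day 12 were also set against untreated resident cells. Of the 77 genes 2 were higher and 7 lower (2.6% and 9.09%, against backgrounds of 15.5% each); with scaling by library totals 1 was higher and 14 lower. Mrps6 was lowest, with 7.36, 10.7 and 8.36 CPM in recruited day 12 cells, against 26.97, 24.2 and 24.04 CPM in untreated resident cells, with no overlap (log2 difference -1.50 ± 0.21, edgeR adjusted p = 6.25e-06). Mrpl14 (-0.77), Mrpl16 (-0.57), Mrpl17 (-0.49) and Mrps12 (-0.48) followed. The higher genes were Mrpl52, with 31.0, 32.0 and 30.4 CPM against 22.3, 14.2 and 15.2 CPM (0.85 ± 0.20, edgeR adjusted p = 0.00187), and Mrpl39 (0.34). Without recruited day 12 library 1 the count was 5, and the calls on Mrpl17, Mrps12 and Mrpl39 were lost. Without untreated library 1 those on Mrpl14, Mrpl17 and Mrps12 were lost.

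Beside the ribosomal proteins, lists of genes that serve mitochondrial translation were read against the same background of 30.3% higher and 30% lower in the mean over days. Of 17 aminoacyl-tRNA synthetases 7 were lower in recruited cells (41.2%) and none higher, among them Fars2 (-0.58) and Vars2 (-0.57). Of 23 assembly factors 3 were higher and 5 lower (21.7%), below the background, with Nsun4 (0.74), an rRNA methyltransferase, and Rpusd4 (-0.75), a pseudouridine synthase, at the ends. Of 13 translation factors 1 was higher (Gfm2, 0.11) and 4 lower (30.8%), near the background, led by Tsfm (-0.36), Tufm (-0.24) and Mrrf (-0.23). Dap3 (-0.16) and Aurkaip1 (-0.14) were lower among 5 other ribosome-associated proteins. Of 8 regulators of mitochondrial gene expression 3 were higher and Myc (-1.19) was lower. None of the 7 tested mRNAs encoded by mitochondria was called. In recruited cells all 23 cell cycle genes were lower (median -2.10), and 48 of 81 cytosolic ribosomal protein genes were higher and 3 lower (median 0.31), whereas the 77 mitochondrial ones had a median of -0.10.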

How the data were processed

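Polyadenylated RNA was sequenced from 27 libraries on an Ion Proton with a modified stranded kit, per the labels' protocols. The deposited table holds raw read counts per Ensembl gene, made by the authors without normalization. A second deposited table holds counts of reads not assigned to a gene and gave the share outside genes. The submitters' processing notes name the build mm10 and, without roles, R 3.1.0, DESeq2 1.4.5, HTSeq 0.6.0 and STAR 2.4.0a. No source used here gives the annotation release; symbols, positions and lengths came from GENCODE mouse M21 (GRCm38).

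Genes were kept by filterByExpr (minimum count 10, minimum total 15), and all 77 passed. They were fitted in R 4.3.3 with edgeR 4.0.16 (a mean for each group over 27 libraries, TMM scaling, 18 residual degrees of freedom, robust quasi-likelihood F test, Benjamini-Hochberg over 13599 genes, threshold 0.05) in 15 comparisons. CPM values use the TMM-scaled library sizes. The script was tested on simulated data. Tried as alternatives were RLE and library-total scaling, no filter, the header number runs as a covariate, a replicate block, DESeq2 1.42.0 and leaving out each library.

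Equal library numbers paired the populations within a day, which the data and no label show: deviations from the group means correlated with r of 0.166 to 0.518 in all 12 pairs. Across days of 1 population the signs were mixed (48 pairs, r -0.433 to 0.293, 14 above 0.1). On days 9 and 12 an equal library number was not always the same run of header numbers. These pairs therefore cannot show whether a batch was shared across days. Between days 3 and 6, where number and run agree, r was 0.109 to 0.26 in resident and 0.0865 to 0.212 in recruited pairs. Pairs of day 0 with day 3 or 6 had r of -0.0427 to 0.232.

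Named were the 10 largest calls in each direction for the mean over days, the 5 largest without overlap elsewhere, the 5 highest and lowest levels per length, and a fixed set. Longer promoter motifs of the NRF1 and YY1 type were searched too and are not reported, since no file used here holds their sequences; the choice did not follow their result. The 77 genes, the lists and these rules were chosen with earlier results of these data known.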

Additional observations from a re-analysis of the deposited data

Results flagged for a closer look

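The recruited minus resident difference of Mrpl54, a large-subunit protein, changed between day 12 and day 3 by a log2 value of -0.89, which a direct test of the change called. Its mean difference was 0.88 on day 3, with the populations apart, and on day 12 the libraries of the 2 populations overlapped. The result rests partly on resident day 12 library 1.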

How the results depend on the processing

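Counts below are of called genes among the 77. Neither here nor in the Results is a share over all tested genes given for the alternative settings. These counts are therefore not read against a background. Scaling by library totals gave 28 on day 3 between the populations (18 with TMM), 12 for resident day 3 against untreated cells (23), 0 for resident day 6 (1), 13, 10 and 13 for recruited days 6, 9 and 12 against day 3 (23, 18 and 26), 2 for the change of the population difference (1) and 15 for recruited day 12 against untreated resident cells (9). It moved the median of all genes by over 0.1 in recruited against resident cells on day 3 (-0.07, with TMM 0.05), in recruited day 9 against day 3 (0.15 and 0.03) and in the change of the difference (0.14 and 0.02). Without the count filter, resident day 6 against untreated cells had 0 calls and recruited day 9 against day 3 had 10. With the number run as covariate, resident days 9 and 12 against untreated cells had 2 and 1, and the change of the difference 3. With the replicate block, day 12 between the populations had 11, resident day 9 had 1 and the change of the difference 3; it moved no other count by over 1.5 times. DESeq2 gave 1 for resident day 9 and 2 for the change of the difference. Without recruited day 6 library 2 and recruited day 12 library 1, an alternative added after seeing the data, recruited days 6 and 12 against day 3 had 12 and 14, and the change of the difference 3. The cause was not tested.

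Leaving out 1 library at a time gave 27 to 33 calls for the mean over days, 13 to 22, 7 to 11, 6 to 9 and 4 to 8 for days 3, 6, 9 and 12, 14 to 24, 0 to 1, 0 to 1 and 0 to 0 for resident days 3, 6, 9 and 12 against untreated cells, 10 to 26 for resident day 6 against day 3, 12 to 26, 9 to 23 and 14 to 28 for recruited days 6, 9 and 12 against day 3, 0 to 2 for the change of the difference, and 5 to 11 for recruited day 12 against untreated resident cells. Mrps18c and Mrps36, which were not called in the mean over days (log2 difference -0.02 each), had 0.00278 and 0.000503 with RLE scaling and 0.00261 and 0.000533 with DESeq2. Without single libraries they ranged from -0.0635 to 0.0204 (Mrps18c) and -0.133 to 0.0407 (Mrps36), and Mrpl45, not called either, from -0.0069 to 0.10. Depth limits Mrpl53 and Mrpl23, at about 1 CPM.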
